A study of Homo sapiens with 4 samples.

Results

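The alpha subunits of heterotrimeric G proteins were described here through 8 genes: GNAO1, GNAI1, GNAI2, GNAI3 and GNAZ of the Gi/o class, GNAQ and GNA11 of the Gq/11 class, and GNAS of the Gs class. Their members were all probe sets of the array whose annotation named 1 of these symbols and no other, which gave 34 of 54613 probe sets apart from controls. The set was chosen because the GNAO1 probe sets differed in direction between the groups, so the GNAO1 differences are a description without a test, whereas the other 7 genes entered by family. RNA came from SH-SY5Y, a line of human neuroblastoma cells with sympathetic neuronal traits, transfected with a control siRNA (siControl, 2 arrays) or with an siRNA against LSD1 (siLSD1, 2 arrays), the histone lysine demethylase encoded by KDM1A. The design text describes 2 transfections for each siRNA in this 1 cell line, and neither the siRNA sequences nor the time after transfection are given in the sources used here. The title of siLSD1 replicate 2 shortens the target's name. Values are log2 signals per probe set after quantile normalization, which gives all arrays the same distribution, and differences are siLSD1 minus siControl. Signals of different probe sets cannot be set against each other, since each has its own probes.

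A heterotrimeric G protein sits at the inner face of the plasma membrane as an alpha, a beta and a gamma subunit. An activated receptor makes the alpha subunit exchange GDP for GTP, after which alpha and the beta-gamma pair act on separate effectors until the alpha subunit hydrolyses its GTP. Gs stimulates adenylyl cyclase, Gi inhibits it, Gq and G11 activate phospholipase C beta, and Go, the product of GNAO1, is the most abundant G protein of neurons, where it acts on calcium and potassium channels largely through beta-gamma. Go and the Gi proteins are substrates of pertussis toxin, and Gz, the product of GNAZ, is the Gi/o member that resists it.

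Promoter windows are shown for GNAO1, whose probe sets had the largest differences among the Gi/o genes, and for GNAI3, a ubiquitous relative with small ones. Each holds the 250 bases before the RefSeq transcription start (GRCh38.p14), GNAO1 at chr16:56191239-56191488 and GNAI3 at chr1:109548365-109548614, both on the plus strand. Capitals mark the GC box GGGCGG, the core of an SP-factor motif, and the full cAMP response element TGACGTCA, each searched on both strands.
GNAO1: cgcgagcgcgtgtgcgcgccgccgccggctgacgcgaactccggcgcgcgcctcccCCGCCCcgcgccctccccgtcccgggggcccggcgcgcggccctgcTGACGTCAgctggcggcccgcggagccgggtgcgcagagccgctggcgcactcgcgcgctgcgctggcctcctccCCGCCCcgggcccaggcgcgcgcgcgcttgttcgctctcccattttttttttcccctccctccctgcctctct
GNAI3: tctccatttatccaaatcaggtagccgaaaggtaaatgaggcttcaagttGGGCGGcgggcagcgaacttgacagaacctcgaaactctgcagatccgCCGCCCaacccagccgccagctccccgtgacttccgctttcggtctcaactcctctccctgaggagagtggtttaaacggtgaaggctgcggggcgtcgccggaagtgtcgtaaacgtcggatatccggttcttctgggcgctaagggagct
Each window held 2 GC boxes, a motif that occurs in 42.6% of 35116 RefSeq promoter windows of this length. The cAMP response element was found in the GNAO1 window and in 1.65% of all windows, 140 bases before the start. GC content was 79.2% for GNAO1 and 57.6% for GNAI3, against a median of 58.0% over all windows. A high GC content was not particular to GNAO1. The GNA11 window had 80.4% and a GNAI1 window 79.6%, while a GNAS window had 54.4%. Of the 8 genes, 6 had windows in the table used, 14 windows in all, and 1 of the 14 held the cAMP response element. GNAZ and GNAQ had none in that table. No binding was measured in this series, and the matches are a description of these letters.

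KDM1A, the target of the siRNA, read 9.79 and 9.78 in siControl against 8.40 and 8.54 in siLSD1, or 40.1% of the control level. In limma's moderated test 0 of 54613 probe sets passed an adjusted p of 0.05 (0%), KDM1A included (adjusted p = 0.980), while 2238 (4.10%) had an unadjusted p under 0.05. With 2 arrays a group, the smallest p of an exact permutation test is 0.333. Before quantile normalization, the median log2 signal was 4.27 and 4.17 in siControl and 4.09 and 4.004 in siLSD1. The groups did not overlap in this median, so array scale and siRNA went together. Why the medians differed by group was not tested. By correlation, siControl replicate 1 stood apart, with a mean of 0.909 with the other arrays where the others had 0.921 each. Of 7 measured markers of noradrenergic neuroblastoma, 6 were at or above the filter level of 3.26, the 40th percentile of all probe sets, with GATA3, ISL1 and DBH above 10 on every array and TH, the enzyme that opens catecholamine synthesis, below it (mean 0.83). Fibroblast markers, 6 of 6 above the filter level and led by COL3A1, LUM and COL1A1, had summed linear signals of 864 and 624 in siControl and 857 and 989 in siLSD1. Schwann and glial markers (1 of 4 above the filter level, ERBB3) had sums of 16.5 to 32.7 and blood cell markers (2 of 5, HBB and CD3E) of 37.3 to 51.1, with SOX10, GFAP and PTPRC below the filter level. A part of these markers in the values below was not tested. In bulk RNA, a smaller share of expressing cells and less RNA per cell cannot be told apart.

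Across the 34 probe sets, 17 were higher in siLSD1 (50.1% of all probe sets were) and 17 were lower (49.9%), and the median log2 difference was -0.02 against 0.00082 over the whole table. None of them passed the threshold in limma, 0 higher and 0 lower, where the whole table had 0% in each direction. The groups did not overlap for 8 higher and 10 lower members, where 16.6% of all probe sets were higher and 16.1% lower without overlap. As shares, 18 of 34 stands beside 32.7% of the table, but the set was picked on this contrast and probe sets of 1 gene share transcripts, so the count is a description. The split depended on the scaling. It was 14 higher and 20 lower with the deposited scaling and 25 higher and 9 lower with median centring, under which the median of all probe sets itself lay at 0.12. At or above the filter level were 31 of the 34, all but GNAO1 215912_at, GNAS 217058_at and GNAS 239037_at. The median half-width of their 95% intervals was 0.46 (log2), while the 3 dim probe sets had 1.91 to 3.32.

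**Figure D1:**
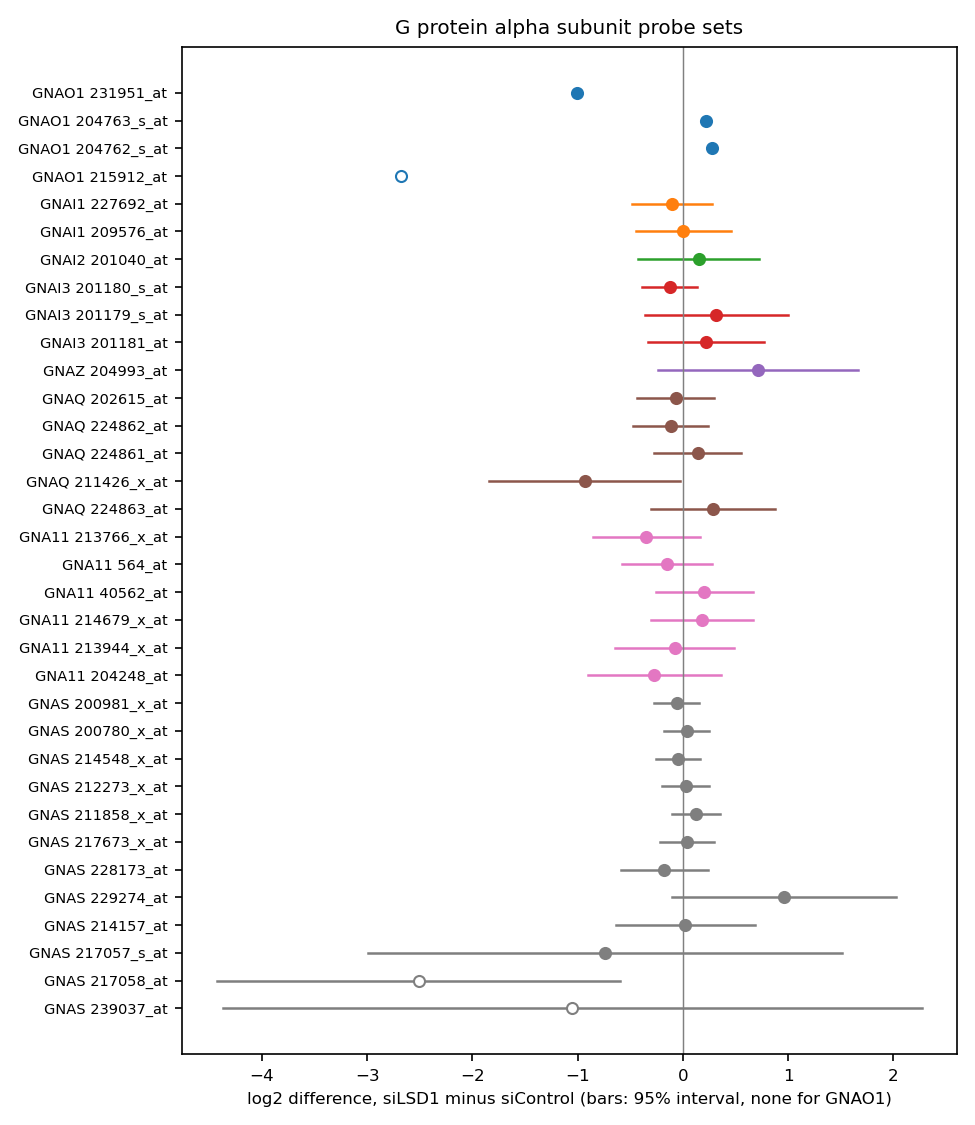
Log2 difference, siLSD1 minus siControl, of each of the 34 probe sets, with limma's 95% interval for the genes other than GNAO1; open circles are the 3 probe sets below the filter level of 3.26. GNAO1 231951_at lies at -1.002 while 204763_s_at and 204762_s_at lie at 0.22 and 0.28, and most of the other points lie within 0.35 of 0.

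GNAO1 had 4 probe sets, and their readings differed in direction. The probe set 231951_at read 8.43 and 8.59 in siControl and 7.45 and 7.56 in siLSD1. The means were 8.51 ± 0.11 and 7.51 ± 0.08 (SD, n = 2), a log2 difference of -1.002, or 2.00-fold lower, with a wide gap between the groups. Leaving out any 1 array kept this difference between -1.08 and -0.92. The control arrays were close to each other here, siControl replicate 1 included, as were the siLSD1 arrays.

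The remaining GNAO1 probe sets differed from that reading. For 204763_s_at the signals were 6.31 and 6.25 in siControl and 6.66 and 6.36 in siLSD1, a log2 difference of 0.22, with groups that did not overlap but lay close, and siLSD1 replicate 2 almost at the control level. Without siLSD1 replicate 1 the difference was 0.07, and without siLSD1 replicate 2 it was 0.37. For 204762_s_at the signals were 4.44 and 5.05 in siControl and 5.62 and 4.42 in siLSD1, a log2 difference of 0.28, and the siLSD1 arrays enclosed the control arrays. It turned to -0.03 without siControl replicate 1 and to -0.32 without siLSD1 replicate 1. Dropping siControl replicate 2 raised it to 0.59, and dropping siLSD1 replicate 2 raised it to 0.88, so its sign and size rested on single arrays. The suffix _s_at marks probe sets whose probes match several transcripts, while _at marks probes meant for 1 transcript. The dim probe set 215912_at had signals of 1.80 and 0.90 in siControl and -1.54 and -1.12 in siLSD1, a log2 difference of -2.68. All 4 of its values lay under the filter level. Differences of 2-fold or more in either direction were found for 18.2% of all probe sets and for 4.61% of those at or above the filter level.

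**Figure D2:**
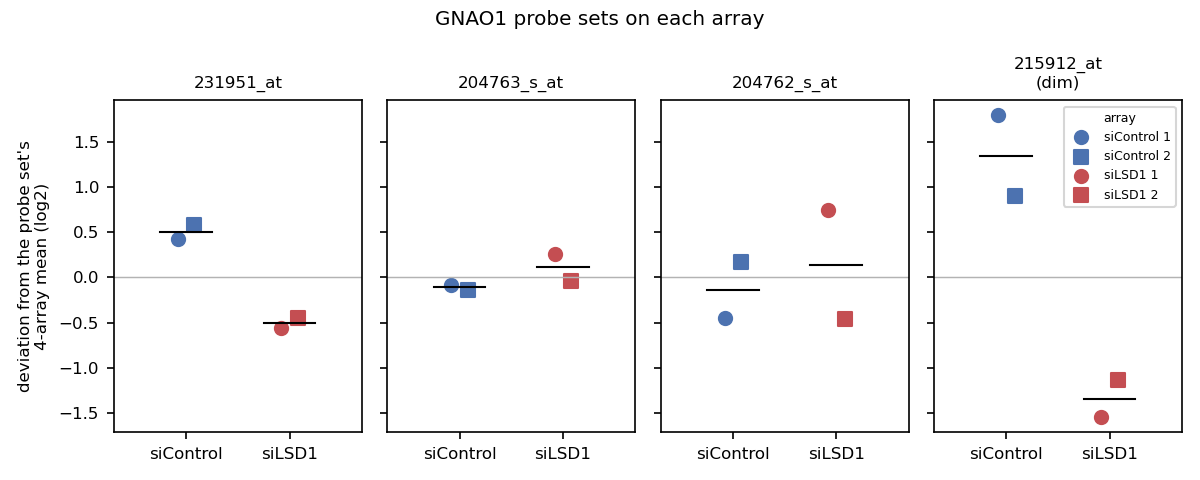
Signal of each GNAO1 probe set on each array as the deviation from that probe set's own mean over the 4 arrays (log2), with black bars for the group means of 2 arrays. The control arrays lie above the siLSD1 arrays for 231951_at and 215912_at, slightly below them for 204763_s_at, and between them for 204762_s_at.

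GNAO1 was picked for this disagreement, so the shares of genes with as many probe sets are a description. They do not test how unusual it is. Among 1851 genes with 3 probe sets at or above the filter level, 71.9% had at least 1 higher and 1 lower probe set, so opposed signs alone were the usual case. The highest and lowest difference of GNAO1 lay 1.28 apart on the log2 scale, where the median gene of this kind had 0.55 and 9.78% had a spread at least as large. Opposed signs were found in 85.3% of genes with 4 probe sets of any level. With all 4 probe sets the GNAO1 spread was 2.96, against a median of 1.14 among 1393 genes with 4 probe sets, of which 6.75% had as much. A stricter definition asked for 1 probe set at 0.5 or more and another at -0.5 or less, which 4.59% of the genes with 3 and 24.9% of those with 4 probe sets met, and GNAO1 did not. That call rested on 204762_s_at, and GNAO1 did meet the definition without siControl replicate 2 and without siLSD1 replicate 2. It did so with all arrays at a limit of 0.25, as did 21.6% and 48.5%, and not at a limit of 1, which 0.162% and 6.75% met. At or above the filter level, GNAO1 thus had 1 probe set 2.00-fold lower and 2 within 0.35 of 0. With median centring the log2 differences were -0.79 for 231951_at, 0.42 for 204763_s_at and 0.30 for 204762_s_at. Over the array, 1.49% of the probe sets at or above that level were at least 2-fold lower without overlap of the groups, as 231951_at was. Its -1.002 only just reached 2-fold, while its -0.96 with the deposited scaling and its -0.79 with median centring did not.

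**Figure D3:**
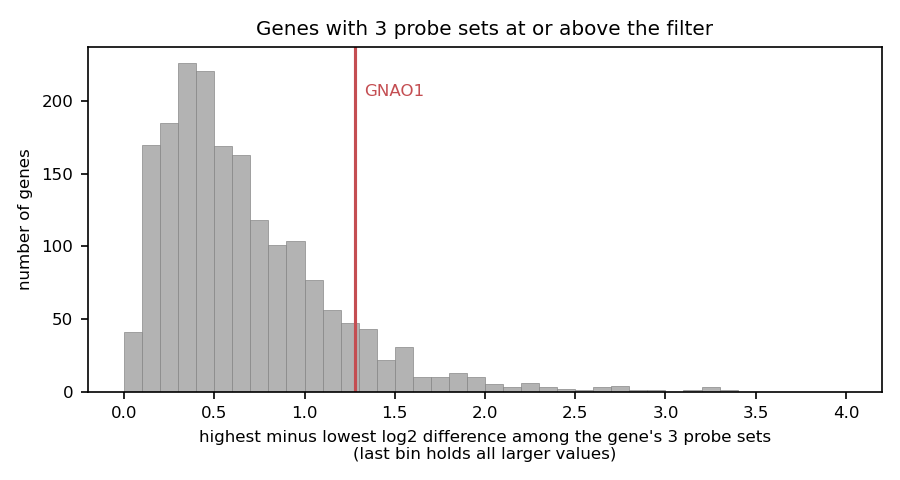
Number of genes by the distance between the highest and the lowest log2 difference of their 3 probe sets, over 1851 genes with 3 probe sets at or above the filter level. The line marks GNAO1, picked for its disagreement, at 1.28, to the right of most genes, and 9.78% of genes lie at or beyond it.

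The genes whose 4-array pattern lay nearest to GNAO1 231951_at, by Euclidean distance of mean-centred log2 signals among 13744 genes, were KRABD2 (distance 0.05), PTTG2 (0.14) and LINC01019 (0.15). The measure rests on 4 arrays. Their log2 differences of -0.97, -1.09 and -0.87 follow from the search, which picks genes with values like those of 231951_at. In siLSD1, PTTG2 (2.89 and 3.07) and LINC01019 (3.10 and 3.26) lay below or close to the filter level of 3.26. Transcripts annotated beside 2 of the loci were looked up after the members' values were seen, and all were dim or close to the filter level. The divergent transcript GNAO1-DT had signals of 4.02 and 2.33 in siControl and 2.81 and 3.08 in siLSD1, and the antisense GNAO1-AS1 had 2.52 and 4.16 against 1.74 and 2.92. GNAS-AS1, the antisense RNA of the GNAS locus, had 4.48 and 3.84 against 4.46 and 4.59. The groups overlapped for each of these 3, with limma's adjusted p at 0.980 or above.

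The Gi genes, whose products inhibit adenylyl cyclase, had small differences in most readings. GNAI1 had signals of 9.11 and 8.89 in siControl and 8.85 and 8.94 in siLSD1 by 227692_at, a log2 difference of -0.11 with a 95% interval from -0.49 to 0.27 (limma's adjusted p = 0.984). Its second probe set, 209576_at, gave 8.24 and 8.51 against 8.26 and 8.50, a log2 difference of 0.0057 with an interval from -0.45 to 0.46. In both the groups overlapped, and in both the sign turned without siControl replicate 1. GNAI2, the Gi gene of widest expression, had 6.57 and 6.49 against 6.69 and 6.66, a log2 difference of 0.15 (-0.42 to 0.72, adjusted p = 0.984 in limma). The groups were apart by a small step, and leaving out any 1 array kept the value between 0.11 and 0.19.

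GNAI3 had 3 probe sets. By 201180_s_at its signals were 11.28 and 11.21 in siControl and 11.19 and 11.05 in siLSD1, a log2 difference of -0.12 with a 95% interval from -0.38 to 0.14. By 201181_at they were 6.59 and 6.76 against 6.88 and 6.91, a log2 difference of 0.22 (-0.33 to 0.78). Both had groups that did not overlap, in opposite directions. The other, 201179_s_at, gave 8.40 and 9.28 in siControl and 9.30 and 9.02 in siLSD1, where siControl replicate 1 was low and the other 3 arrays lay together. Its log2 difference of 0.32 became -0.12 without that array. Limma's adjusted p was 0.980 for each of the 3.

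GNAZ, the gene of the pertussis toxin-resistant Gz, had the largest difference among the Gi/o genes other than GNAO1. Its only probe set, 204993_at, read 6.35 and 7.64 in siControl and 7.65 and 7.75 in siLSD1. The means were 6.99 ± 0.91 and 7.70 ± 0.07 (SD, n = 2), and the log2 difference of 0.71 had a 95% interval from -0.24 to 1.66 (limma's adjusted p = 0.980). The groups did not overlap, yet siControl replicate 2 lay only just below siLSD1 replicate 1, and the low array was siControl replicate 1. Without it the log2 difference was 0.07, and without siControl replicate 2 it was 1.36.

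For the Gq/11 class, which couples receptors to phospholipase C beta, 4 of 11 probe sets were higher and 7 lower. Of all probe sets 50.1% were higher and 49.9% lower. The split depended on the scaling, since GNAQ 202615_at and 224862_at and GNA11 564_at and 213944_x_at turned higher with median centring. GNAQ had 5 probe sets, of which 4 stayed within 0.35 of 0, from -0.12 for 224862_at to 0.28 for 224863_at. The remaining 1, 211426_x_at, read 7.88 and 7.83 in siControl and 7.53 and 6.32 in siLSD1, a log2 difference of -0.93 with a 95% interval from -1.84 to -0.02 (unadjusted p = 0.0459 and adjusted p = 0.980 in limma). The control arrays nearly coincided, and siLSD1 replicate 2 lay far below siLSD1 replicate 1. Without siLSD1 replicate 2 the log2 difference was -0.32, and without siLSD1 replicate 1 it was -1.54. The suffix _x_at marks probe sets with probes that may also bind other sequences, and GNAQ has a processed pseudogene, so this reading is uncertain. For comparison, 202615_at read 9.61 and 9.61 in siControl and 9.70 and 9.39 in siLSD1, a log2 difference of -0.07 with overlapping groups (-0.43 to 0.30), and 224861_at read 8.54 and 8.41 against 8.49 and 8.74, a log2 difference of 0.14.

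GNA11, the close paralog of GNAQ, had 6 probe sets with log2 differences from -0.35 to 0.21. The lowest, 213766_x_at, read 8.69 and 8.78 in siControl and 8.12 and 8.65 in siLSD1, with siLSD1 replicate 1 alone clearly lower, and its log2 difference was -0.08 without that array. The highest, 40562_at, read 7.59 and 7.73 against 7.79 and 7.93, with groups close together but apart. For 204248_at the signals were 7.02 and 6.87 against 6.92 and 6.42, where siLSD1 replicate 2 stood below the other 3, and the log2 difference of -0.27 was -0.02 without it. The other 3 probe sets, 564_at, 214679_x_at and 213944_x_at, had log2 differences of -0.15, 0.18 and -0.08. Limma's adjusted p was 0.980 or above for all 6, and their 95% intervals reached from -0.90 at the lowest to 0.66 at the highest.

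GNAS encodes the stimulatory alpha subunit and lies in an imprinted locus whose alternative first exons give several products with shared downstream exons. Its 6 bright _x_at probe sets, with signals between 11.28 and 12.29 on all arrays, varied little between arrays. As _x_at probe sets they too may have probes that bind other sequences. Their log2 differences ran from -0.06 to 0.13 with a median of 0.03, 4 higher and 2 lower, and the limits of their 95% intervals stayed between -0.27 and 0.35. A difference of more than 1.21-fold down or 1.28-fold up thus lay outside all 6 intervals after quantile normalization. Other scalings shift these limits. The log2 difference was 0.23 for 211858_x_at with median centring and -0.14 for 200981_x_at with the deposited scaling. As an example, 200780_x_at read 12.11 and 12.19 in siControl and 12.20 and 12.18 in siLSD1. These 6 probe sets may share probes and are not separate measurements of the gene.

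Other GNAS probe sets were more scattered. For 229274_at the signals were 6.29 and 7.48 in siControl and 8.29 and 7.40 in siLSD1, a log2 difference of 0.96 with a 95% interval from -0.10 to 2.02 (limma's adjusted p = 0.980). Its groups overlapped, with siControl replicate 1 low and siLSD1 replicate 1 high, and the value was 0.36 without the former and 0.51 without the latter. By 217057_s_at the signals were 3.64 and 6.62 against 5.01 and 3.78, where the control arrays enclosed the siLSD1 arrays, and the log2 difference of -0.74 turned to 0.75 without siControl replicate 2. The dim 217058_at read 3.22 and 4.08 in siControl and 0.65 and 1.63 in siLSD1, a log2 difference of -2.51 (-4.42 to -0.60, unadjusted p = 0.0173 and adjusted p = 0.980 in limma). It stayed between -3.00 and -2.02 when 1 array was left out. The dim 239037_at read -0.19 and 3.90 against 0.79 and 0.82, so that its 2 control arrays were the lowest and the highest of the series. For 228173_at and 214157_at the log2 differences were -0.18 and 0.02. GNAS probe sets with a difference of 0.5 or more were thus found on both sides of 0, which also held for 2 of the 3 genes on the array with 12 probe sets, GNAS included.

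**Figure D4:**
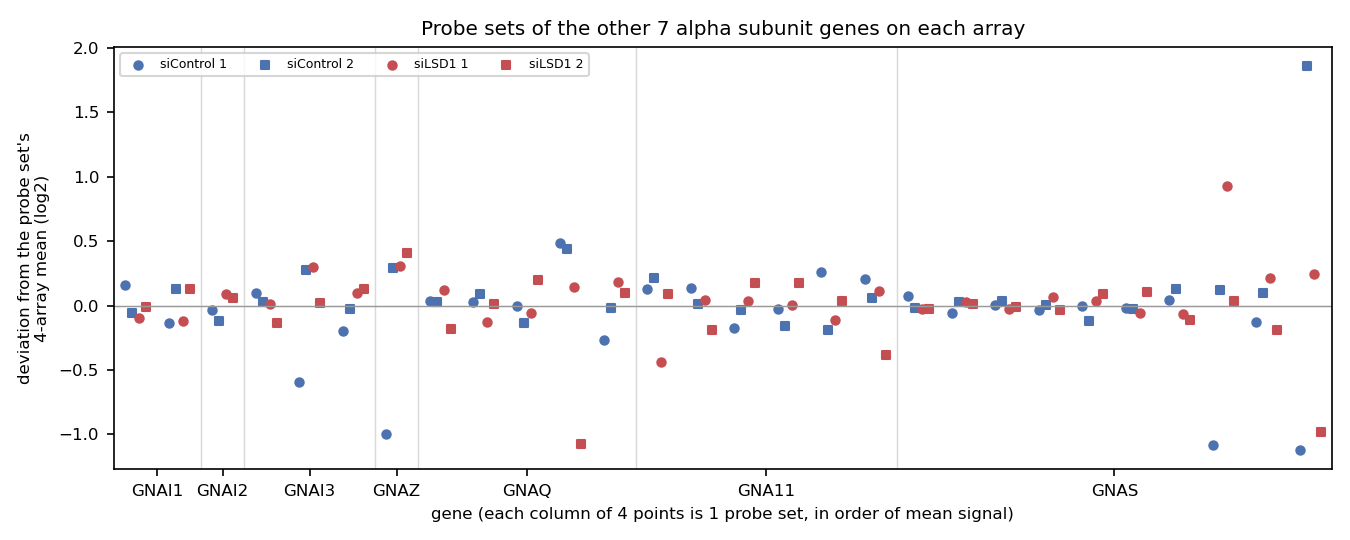
Signals of the 28 probe sets of GNAI1, GNAI2, GNAI3, GNAZ, GNAQ, GNA11 and GNAS at or above the filter level on each array, as deviations from the probe set's own mean over the 4 arrays (log2). Points that stand apart from the other 3 arrays include siControl replicate 1 for GNAZ and for a GNAI3 probe set, and siLSD1 replicate 2 for a GNAQ probe set.

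Of these 28 probe sets, 24 had a log2 difference under 0.35 in size, and in limma 0 passed the threshold. The share of all probe sets under 0.35 was not counted, so the 24 are a description and do not show unusual stability. All 6 genes with more than 1 probe set had probe sets on both sides of 0. By the brightest probe set alone, 2 of the 8 genes, GNAI2 and GNAZ, were higher and 6 lower, GNAO1, picked on this contrast, included. Of all genes 50.7% were higher and 49.3% lower. With median centring the brightest probe sets of GNAI1 (0.084), GNAQ (0.098) and GNAS (0.030) turned higher, and that of GNAI3 lay at -0.0047. Without siControl replicate 1 the sign turned for 7 of the 34 probe sets, and for 2 or 3 without each of the other arrays. That array was the lowest for 10 of the 34 and the highest for 8, and siLSD1 replicate 2 was the lowest for 10 as well. Over the whole table siControl replicate 1 was the lowest for 27.8% of probe sets and the highest for 31.3%.

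The alpha subunits outside the set, and the subunits that bind them, were read by the brightest probe set of each gene, where 50.7% of all 19775 genes were higher, 49.3% lower, 32.6% had groups that did not overlap and 0% were called. Of 8 other alpha subunit genes 3 were higher and 5 lower, with 2 at or above the filter level: GNA13 (10.59 and 10.62 in siControl, 10.78 and 10.77 in siLSD1) and GNA12 (8.75 and 9.22, 9.10 and 9.17). GNA14, a Gq/11 relative, was dim at 3.09 and 3.41 against 3.07 and 2.47. Among 5 beta subunit genes 4 were higher and 1 lower, GNB3 (-1.08), named after its value was seen, with log2 differences of 0.15 for GNB1, 0.45 for GNB2 and 0.06 for GNB4. The GNB2 control arrays read 8.72 and 9.44 and the siLSD1 arrays 9.49 and 9.57, so siControl replicate 1 was the low one. For the gamma subunits the split was 8 to 4 of 12, the median 0.06, and GNG5 (-0.03), GNG11 (0.08) and GNG10 (0.10) were the brightest.

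Regulators of the GTPase cycle gave mixed signs. The RGS proteins speed GTP hydrolysis by alpha subunits, and of their 19 genes 9 were higher and 10 lower (median -0.03). RGS5 read 12.78 and 12.71 in siControl and 12.73 and 12.70 in siLSD1, RGS4, which acts on Gi/o and Gq, had a log2 difference of -0.21, and RGS2, which prefers Gq, of 0.15. Chaperones and regulators that act without a receptor numbered 5 higher and 6 lower of 11 measured, with GPSM1 (-0.05) and GPSM2 (-0.70), which bind GDP-loaded Gi, and CCDC88A (0.19), a non-receptor activator of Gi. GPSM2 read 8.71 and 8.86 in siControl and 7.45 and 8.73 in siLSD1, so siLSD1 replicate 1 alone was low.

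Effectors and kinases also had genes on both sides of 0, except for phospholipase C beta. Of 9 adenylyl cyclases 5 were higher and 4 lower (median 0.02, and -0.27 to 0.29 when 1 array was left out), with ADCY1 at 0.03, ADCY7 at 0.13 and ADCY6 at 0.02. All 4 phospholipase C beta genes were higher (median 0.15), among them PLCB4 (0.17), PLCB1 (0.13) and PLCB3 (0.0049). The remaining gene, PLCB2 (1.60), lay below the filter level on both siControl arrays. The 3 measured potassium channel genes gated by beta-gamma included KCNJ5 (-0.83), KCNJ9 (0.14) and the dim KCNJ6 (-0.01), and their median ran from -0.66 to 0.20 when 1 array was left out. Of 6 subunits of protein kinase A, the target of cAMP, 5 were higher and 1, PRKAR2B (-0.05), lower, with PRKAR1A at 0.07 and PRKAR2A at 0.11. Receptor kinases and arrestins, which end receptor signalling, were 3 higher and 3 lower, with GRK3 (0.20), GRK5 (-0.08) and ARRB1 (0.02).

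Receptors were counted by the class of alpha subunit they couple to. The 36 receptors of Gi and Go split into 18 higher and 18 lower (median -0.01). The brightest were the chemokine receptor CXCR4 (0.05), the glutamate receptor GRM8 (-0.33) and NPY2R, a receptor of neuropeptide Y, which read 6.22 and 5.81 in siControl and 6.80 and 7.01 in siLSD1. Its log2 difference of 0.89 did not pass the threshold (unadjusted p = 0.0146 and adjusted p = 0.980 in limma). Of 15 measured Gs-coupled receptors 9 were higher and 6 lower (median 0.10), with the PACAP receptor ADCYAP1R1 (-0.01), the prostaglandin receptor PTGER2 (0.12) and the adenosine receptor ADORA2B (0.03). Of 18 measured Gq-coupled receptors 8 were higher and 10 lower (median -0.38), 12 of them dim, with the muscarinic receptor CHRM3 (0.02), the thrombin receptor F2R (-0.38) and the endothelin receptor EDNRB (-0.59). Dropping siControl replicate 1 moved that median to -0.12, dropping siLSD1 replicate 2 to -0.20 and dropping siControl replicate 2 to -0.57. Of the 13 list medians, 8 changed sign when 1 array or another was left out. Over all 13 lists, 82 of 152 measured genes were higher and 70 lower, and their median log2 difference was 0.02 against 0.0054 over all genes. Without siControl replicate 2 the split was 68 higher and 84 lower. In limma 0 of them passed in either direction, and 5 (3.29%) had an unadjusted p under 0.05, a share near the 3.51% of all genes. These 5, named after their values were seen, were GNG8 (0.42), HTR1A (-1.48), NPY2R (0.89), PLCB2 (1.60) and the dim DRD1 (3.16). HTR1A lay below the filter level on both siLSD1 arrays (2.98 and 2.71), as PLCB2 did on both siControl arrays. These 2 thus reached that level only through the group where they read higher.

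**Figure D5:**
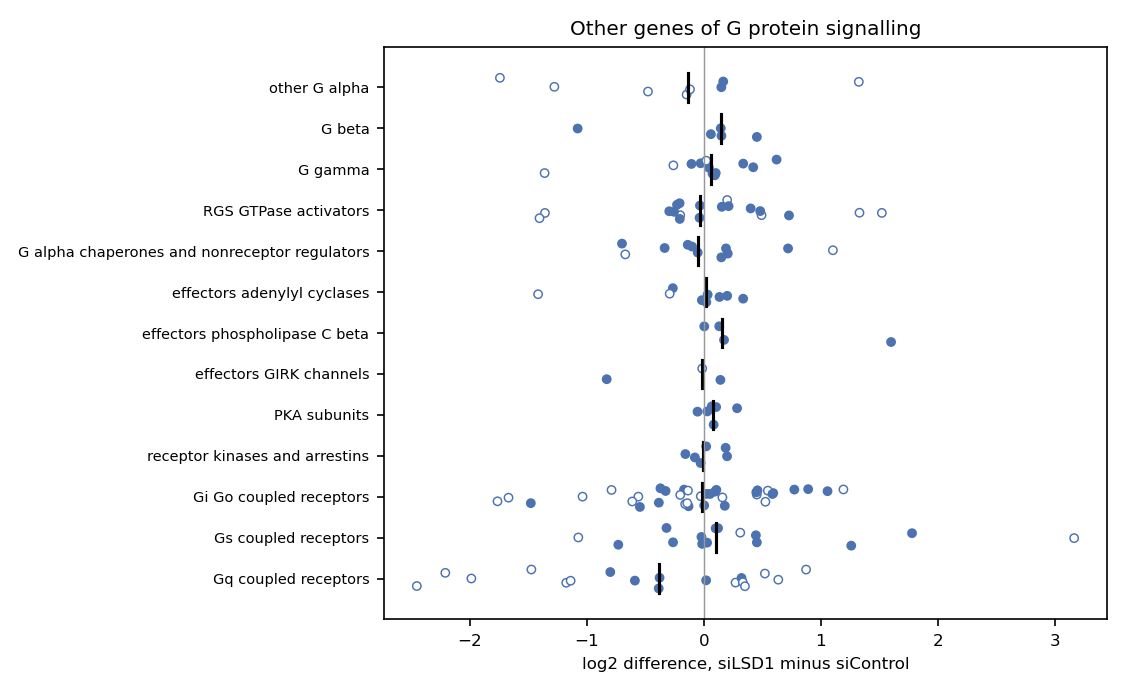
Log2 difference, siLSD1 minus siControl, of each measured gene of 13 lists of G protein signalling, by its brightest probe set; open circles are genes below the filter level and black bars are list medians. The medians run from -0.38 for Gq-coupled receptors to 0.15 for phospholipase C beta genes, and the points far from 0 are mostly open circles.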

How the data were processed

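RNA of 4 arrays was labelled with biotin and hybridized, per the labels' protocols. The authors deposited log2 signals, 1 per probe set and array. The base was inferred from the values, since antilogs to base 2, trimmed by 2% at both ends, averaged 100.0 for every array. The sources used here name no summary method. Of 54675 probe sets 62 controls were left out, and the rest were quantile normalized. Names came from the platform annotation of probe sets with 1 symbol (41091), and sequences from RefSeq (GRCh38.p14). All 54613 probe sets were fitted without a filter in R 4.3.3 with limma 3.58.1 (lmFit, eBayes with a mean-variance trend, two-sided, Benjamini-Hochberg, threshold 0.05), with 6.94 degrees of freedom including those pooled over probe sets. The fit was also run on values simulated from limma's own variance model, which does not check that model against these arrays. The number of arrays limits the precision, and p-values reflect the spread among transfections within 1 cell line. The members and lists were chosen with earlier results of these data known. Named were KDM1A, all members, the 3 genes of highest mean in each list, and the 3 nearest to GNAO1 231951_at in pattern. Other scalings, a filter, other variance models, a replicate block, the brightest probe sets and leaving out arrays were tried.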

Additional observations from a re-analysis of the deposited data

How the results depend on the processing

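Quantile normalization sets all arrays to 1 distribution, and precision is limited by having 4 arrays. The log2 difference of KDM1A kept its sign and its side of the threshold under all 11 alternatives, and none of the members was called under any of them. Leaving out 1 array gave 0 to 1 called probe sets in the whole table. The 1 was RARS1 without siControl replicate 2 (log2 difference 3.58, limma's adjusted p = 0.0468). The count of lower members was 9 under median centring. By the brightest probe set 2 members were higher and 6 lower, since 8 probe sets were counted. With the filter, 38 pathway genes were lower, since 100 genes were counted. The spread of the GNAO1 differences was 1.28 with the filter, which leaves out the dim probe set, and 2.49 to 3.77 without 1 array.

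Under median centring the sign turned for GNAI1 227692_at (0.084), GNAQ 202615_at (0.098) and 224862_at (0.074), GNA11 564_at (0.056) and 213944_x_at (0.14), and GNAS 200981_x_at (0.030), 214548_x_at (0.051) and 228173_at (0.045). With the deposited scaling it turned for GNAS 200780_x_at (-0.051), 212273_x_at (-0.049) and 217673_x_at (-0.035). Without 1 array the values ran from -0.22 to 0.0041 for GNAI1 227692_at, -0.13 to 0.14 for GNAI1 209576_at, -0.12 to 0.75 for GNAI3 201179_s_at, -0.22 to 0.086 for GNAQ 202615_at and -0.30 to 0.15 for GNA11 213944_x_at. For GNAS they ran from -0.0068 to 0.079 (200780_x_at), -0.023 to 0.078 (212273_x_at), -0.039 to 0.13 (217673_x_at), -0.18 to 0.23 (214157_at), -2.23 to 0.75 (217057_s_at) and -3.09 to 0.995 (239037_at). The cause of these turns was not tested.

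With the replicate number as a block, the log2 difference of KDM1A was -1.32 and 0 probe sets were called. The deviations of same-numbered arrays had a correlation of 0.02 over 54613 probe sets, so the numbers were not taken to pair the arrays.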
